A study of Mus musculus with 4 samples.

Results

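The genes described here are those of leukotriene synthesis, Alox5ap, Ltc4s, Alox5 and Lta4h, in mouse CD4+ T cells polarized to T helper type 1 (Th1) or type 2 (Th2). Every probe set whose platform annotation names 1 of these genes alone was taken. This gave 6 probe sets for the 4 genes, of 34945 probe sets with a single gene and 18193 genes on the array. Lta4h has 3 probe sets and the other members 1 each, and no member probe set is shared with another gene. The set was chosen on earlier results of these same arrays, in which Alox5ap had one of the largest differences after STAT4 loss, so all differences of the members are given as a description with no test.

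Leukotrienes are lipid mediators made from arachidonic acid, a fatty acid cut from membrane phospholipids by phospholipases. 5-Lipoxygenase (Alox5), helped by its activating protein FLAP (Alox5ap), turns arachidonic acid into leukotriene A4. Leukotriene A4 hydrolase (Lta4h) converts this to leukotriene B4, which attracts neutrophils and activated T cells through the receptor BLT1, and leukotriene C4 synthase (Ltc4s) joins it to glutathione to give the cysteinyl leukotrienes, which constrict airways and act through the receptors CysLT1 and CysLT2. Synthesis is best known from myeloid cells and mast cells, and T cells are known mainly as cells that respond to these mediators.

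The study asked how STAT4 and STAT6, which carry the signals of interleukin-12 and interleukin-4, shape gene expression in T helper cells. Naive CD4+CD44-CD62L+ T cells, sorted from lymph nodes and spleen, were activated with antibodies to CD3 and CD28 for 3 days, kept for 4 days in interleukin-2, and on day 7 restimulated for 2 h through CD3 and CD28. Th1 cells received interleukin-12 throughout, at 20 ng/ml, 10 ng/ml in the interleukin-2 phase and 20 ng/ml at restimulation, with an antibody to interleukin-4 during activation, and Th2 cells received interleukin-4 at 10 ng/ml in each phase with an antibody to interferon gamma during activation. A single Affymetrix mouse expression array was made for each of 4 groups: Th1 wild type and Th2 wild type cells, both of genotype C57BL/6J, Th1 STAT4-deficient cells (C57BL6-STAT4<tm1>) and Th2 STAT6-deficient cells (B6.129S2©-STAT6<tm1Gru>/J). The age and sex of the mice, and whether cells of several mice were pooled, are not given in the sources used here. The deficiency is in the germline of these strains, so it covers the naive cells before culture as well as the cultured cells.

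Each group has a single array, so no value has a replicate check, a test or a p-value, and the number of arrays limits the precision of every value. Levels are the authors' log2 values, so a difference of 1 is 2-fold. A gene was called higher or lower in a comparison where its 2 levels differed by at least 1 and the brighter of them reached 5.82, the median of all probe sets on the 4 arrays. This level minimum is not a detection call. As a technical guide, the SD of the disagreement between probe sets of 1 gene was 0.48 log2 units for STAT4 loss (STAT4-deficient minus wild type, both Th1), 0.65 for STAT6 loss (STAT6-deficient minus wild type, both Th2), 0.71 between the wild types and 0.85 between the deficient cells. It covers probe behaviour and not the spread between mice or cultures. The 2 losses share no array, while the other comparisons use the same 4 arrays again.

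The Stat4 probe set read 11.45 in wild type and 9.20 in STAT4-deficient Th1 cells, whereas the brighter Stat6 probe set read 10.93 in wild type and 10.92 in STAT6-deficient Th2 cells. Whether these probes lie in the deleted parts is not known, so neither reading checks a genotype. The STAT6-deficient array stood apart in RNA quality. Its beta-actin signal was 2.08 log2 units higher at the 3′ end than at the 5′ end, against 0.32 to 0.85 on the other arrays. The part of RNA quality in the differences after STAT6 loss and between the deficient cells was not tested. T cell markers were bright, with all 7 measured genes of the list (such as Cd3e and Cd4) above the level minimum on every array. Of these, Cd28 was lower after STAT4 loss (−1.01) and Cd247 after STAT6 loss (−1.58).

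Alox5ap (probe set 1452016_at), which encodes FLAP, the membrane protein that presents arachidonic acid to 5-lipoxygenase, had the widest range of the members. It read 6.22 in wild type and 10.34 in STAT4-deficient Th1 cells, and 5.54 in wild type and 8.25 in STAT6-deficient Th2 cells. Both deficient arrays were therefore above both wild type arrays, and the Th2 wild type array was below the level minimum. The difference was 4.11 log2 units (17.3-fold) after STAT4 loss and 2.70 (6.51-fold) after STAT6 loss. Among all 18193 genes, ordered from the highest difference, Alox5ap ranked 4 in STAT4 loss and 110 in STAT6 loss. Ordered by level, the STAT4-deficient array exceeded the STAT6-deficient one by 2.09 and the latter exceeded Th1 wild type by 2.03, both more than the technical guide for those pairs. The gap of 0.68 between Th1 and Th2 wild type was smaller than the guide, 0.71, and these 2 levels are not separated by it. In bulk RNA, fewer cells of a type and less RNA per cell cannot be told apart.

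In STAT4 loss 4.28% of all genes were called higher, in STAT6 loss 4.43%, and in both losses together 0.665% (121 genes), Alox5ap among them. Only 2 genes, Lad1 and Ccn3, had at least the Alox5ap difference in each loss. They are named because of that count, after their values were seen. Lad1, which encodes ladinin 1, a protein of basement membrane attachment in epithelia, was higher by 4.59 after STAT4 loss and 4.95 after STAT6 loss on its only probe set. Ccn3, a secreted matrix-associated protein gene, was higher by 4.14 and 4.35 on the brighter of its 2 probe sets. Its wild type levels, 3.88 in Th1 and 4.19 in Th2, were below the level minimum, as the Th2 wild type level of Alox5ap was. The sizes of the Ccn3 differences and of the Alox5ap difference after STAT6 loss therefore rest on dim levels. So does the count of 2 genes. The Th1 wild type level of Alox5ap, 6.22, was above the minimum of 5.82 but near it. The size of the Alox5ap difference after STAT4 loss thus also starts from a low level. Lad1 read 7.31 in Th1 and 6.84 in Th2 wild type cells, above the minimum.

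The genes whose 4 levels followed Alox5ap most closely were sought by the Euclidean distance between the 4 log2 levels after subtracting each gene's mean, over 7808 genes with a range of at least 1 and a level above the minimum. The 5 nearest were Atp1b1 (distance 1.46), Tox (1.61), H2-Ob (1.67), Cd83 (1.69) and St8sia6 (1.74), against a median distance of 4.12. Atp1b1 encodes a subunit of the sodium-potassium pump, and it read 7.84, 10.97, 7.64 and 8.53 in wild type Th1, STAT4-deficient Th1, wild type Th2 and STAT6-deficient Th2 cells. Tox, a transcription factor of T cell development and exhaustion, read 7.22, 9.30, 4.75 and 7.55 in the same order. Cd83, a surface protein of activated lymphocytes and dendritic cells, read 9.68, 12.19, 9.74 and 11.47. H2-Ob read 5.80, 7.66, 4.48 and 6.47. St8sia6 read 6.79, 8.91, 4.80 and 6.58, so that, unlike Alox5ap, its STAT6-deficient level was below that of Th1 wild type. All 5 were highest in STAT4-deficient cells, as Alox5ap was, but none spanned the whole Alox5ap range of 4.79 log2 units. They were chosen for the closeness of these levels, so the shared order adds nothing to the choice. With 4 arrays this likeness is a description of 4 levels.

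**Figure D1:**
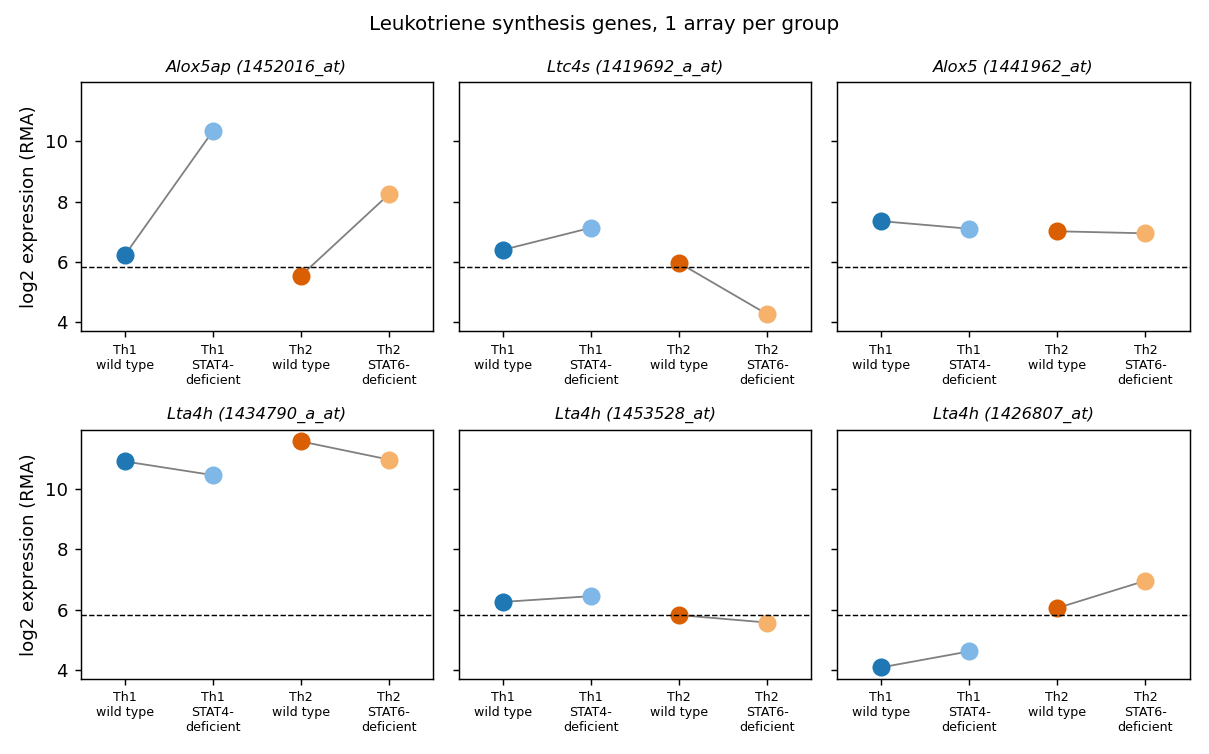
Levels (log2 expression, RMA) of the 6 probe sets of the leukotriene synthesis genes on the 4 arrays, 1 point per array, with grey lines joining deficient and wild type cells of the same culture condition and a dashed line at the level minimum of 5.82. Alox5ap stands at 10.34 and 8.25 in the deficient cells and at 6.22 and 5.54 in the wild types, while Alox5 stays between 6.95 and 7.35.

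Ltc4s (1419692_a_at), the enzyme that commits leukotriene A4 to the cysteinyl branch and a relative of FLAP in the same membrane protein family, did not follow Alox5ap. Its levels were 6.40 in wild type and 7.13 in STAT4-deficient Th1 cells, and 5.97 in wild type and 4.27 in STAT6-deficient Th2 cells. The STAT6-deficient array was the lowest and the only one below the level minimum, and the Th2 wild type array lay just above it. After STAT6 loss Ltc4s was 3.25-fold lower (−1.70), where 12.3% of all genes were called lower. After STAT4 loss the difference was 0.73, above the technical guide of 0.48 and below the 2-fold limit. Only when the arrays were centred on the hybridization controls did it pass the limit, at 1.12. Its nearest genes by the same distance were Scd3 (0.36), Ngp (0.44), Cdk20 (0.46), Gng13 (0.47) and Rims4 (0.52), against a median of 2.49. All 5 were lowest on the STAT6-deficient array, at 3.97 to 4.44, and highest on the STAT4-deficient one, at 6.27 to 6.81. They were chosen for the closeness of these levels, so the shared order adds nothing to the choice. They are also dim genes, with levels around or below the level minimum. Ngp, a neutrophil granule protein gene, belongs to the neutrophil marker list and is a marker of the cells in which the pathway is best known. Ngp read 5.92, 6.47, 5.57 and 4.21 in the order used above, and its part in the Ltc4s levels was not tested. Of the 8 measured genes of that list 4 were below the level minimum on all 4 arrays, S100a8 and S100a9 among them, while Camp reached it on every array and Ngp, Mpo and Ltf on some.

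The 250 bases before the start of Ltc4s are shown because STAT loss is the comparison and Ltc4s is a called member with a window in the RefSeq promoter table (GRCm38.p6, chr11:50238533-50238782, minus strand). They were searched for the palindromic STAT motifs TTCNNNGAA and TTCNNNNGAA, the longer form being the one that STAT6 is known to prefer. A palindrome reads the same on both strands and these 2 forms differ in spacing. Neither was found in the windows of Ltc4s, Alox5 or Lta4h, while the first was held by 7.02% and the second by 5.85% of the 32851 windows of this length. No window was available for Alox5ap or for the receptor gene Cysltr1, so they were not searched.
Ltc4s: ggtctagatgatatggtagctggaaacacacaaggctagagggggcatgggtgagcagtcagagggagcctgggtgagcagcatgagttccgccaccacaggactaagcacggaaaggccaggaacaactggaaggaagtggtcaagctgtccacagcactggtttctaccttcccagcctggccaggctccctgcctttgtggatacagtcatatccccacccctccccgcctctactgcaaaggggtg
That these letters are not in this window describes the window and says nothing of STAT binding elsewhere.

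Alox5 (1441962_at), the lipoxygenase itself, was nearly level across the arrays. It read 7.35 in wild type and 7.10 in STAT4-deficient Th1 cells, and 7.02 in wild type and 6.95 in STAT6-deficient Th2 cells. The whole range was 0.40 log2 units, less than the technical guide of each pair, and all 4 levels were above the minimum. Its differences were −0.25 after STAT4 loss and −0.07 after STAT6 loss. The sign of both depended on the scaling, with 0.13 after STAT4 loss when centred on the hybridization controls and up to 0.22 after STAT6 loss. Relative to the median of all genes Alox5 stood at −0.45 to −0.42 and at 0.12 to 0.24. A level this even on 1 probe set gives no direction for Alox5, and with 1 array per group it does not show that the gene was unaffected.

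Lta4h, the hydrolase that makes leukotriene B4, was bright on its main probe set (1434790_a_at) and differed little. This probe set read 10.92 in wild type and 10.46 in STAT4-deficient Th1 cells, and 11.58 in wild type and 10.98 in STAT6-deficient Th2 cells. Each deficient array was below its wild type, with differences of −0.45 in the Th1 pair and −0.60 in the Th2 pair, within the technical guide of both pairs. The probe set 1453528_at was near the level minimum and read 6.26, 6.45, 5.82 and 5.58 in the same order. The remaining probe set, 1426807_at, read 4.09 and 4.62 in the Th1 arrays and 6.06 and 6.96 in the Th2 arrays. Its Th1 minus Th2 differences were −1.97 between the wild types and −2.34 between the deficient cells. Both of its Th1 levels were below the level minimum, so the sizes of these differences rest on dim levels. The main probe set was also lower in Th1, by less (−0.66 and −0.51), while 1453528_at was higher in Th1 (0.44 and 0.87). The 3 probe sets disagreed in direction in both losses. In the order given they differed by −0.45, 0.19 and 0.53 after STAT4 loss and by −0.60, −0.25 and 0.90 after STAT6 loss. Which transcripts each of them detects was not analysed here. The 5 genes nearest to the main probe set, Cstf2t, Atg12, Pik3ca, Gdi2 and Sh3bgrl3, lay within a distance of 0.08, against a median of 1.32.

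Set side by side, the members did not move as a group. In STAT4 loss 1 of the 4 was called, Alox5ap, where 7.98% of all genes were called in either direction. In STAT6 loss 2 were called, Alox5ap higher and Ltc4s lower, against 16.7% of all genes. The median difference of the members was 0.24 in STAT4 loss and −0.34 in STAT6 loss, beside 0.17 and −0.19 over all genes. Between the wild types none of the 4 was called, with differences from −0.66 to 0.68, although 22.3% of all genes were (5.42% higher and 16.9% lower in Th1). Between the deficient cells Alox5ap (2.09) and Ltc4s (2.87) were both higher in STAT4-deficient Th1 than in STAT6-deficient Th2 cells, where 8.71% of all genes were called higher and 7.09% lower. Ltc4s ranked 6 of 18193 in that difference, its lower level lying under the level minimum, on the array that stood apart in RNA quality. Since the members were chosen with these differences known, the shares of all genes are given beside them and nothing is read from the excess.

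The leukotriene receptors that reached the level minimum were lower in both deficient arrays, the opposite direction to Alox5ap. Of the 6 genes of the receptor list 5 were measured, and 3 reached the level minimum: Ltb4r1, Cysltr1 and Cysltr2. Those 3 of the 5 were called lower in STAT4 loss, where 673 genes (3.7% of all) were, and in STAT6 loss, where 2237 (12.3%) were. These shares are over all genes, also those too dim to be called, and are not the shares among genes at the level minimum. Only 12608 genes in STAT4 loss and 11490 in STAT6 loss reached it. Oxgr1, which did not, differed by 1.72 in STAT4 loss. In both losses together 1.48% of all genes were called lower. The median difference over the 5 measured receptors was −1.59 in STAT4 loss and −1.55 in STAT6 loss.

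Ltb4r1, which encodes BLT1, the high-affinity leukotriene B4 receptor, read 8.04 in wild type and 6.45 in STAT4-deficient Th1 cells, and 9.87 in wild type and 6.85 in STAT6-deficient Th2 cells. Both deficient arrays were below both wild types, and Th2 wild type was the highest. It was 3.00-fold lower (−1.59) after STAT4 loss and 8.08-fold lower (−3.01) after STAT6 loss. The 2 deficient arrays differed by 0.40, less than the guide of 0.85.

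Cysltr1, the receptor gene for leukotriene D4, had both wild type arrays above both deficient arrays on each of its 2 probe sets. The brighter probe set over the arrays read 9.002, 7.26, 10.79 and 7.35 in that order of arrays (wild type and deficient Th1, wild type and deficient Th2), and the other read 8.85, 6.56, 11.46 and 5.87. Differences after STAT4 loss were −1.74 and −2.29, and after STAT6 loss −3.44 and −5.59. Between the wild types both probe sets were higher in Th2 cells, with Th1 minus Th2 differences of −1.79 and −2.61.

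Cysltr2, the receptor gene for leukotrienes C4 and D4, was instead highest in Th1 wild type cells. It read 7.90 there and 5.87 in the STAT4-deficient Th1 cells, with 6.45 in wild type and 4.90 in STAT6-deficient Th2 cells. Its differences were −2.04 after STAT4 loss and −1.55 after STAT6 loss, the latter ending below the level minimum. The wild types differed by 1.45 in favour of Th1, where Ltb4r1 and Cysltr1 differed in favour of Th2. Oxgr1, whose product also binds leukotriene E4, read 3.58, 5.30, 3.67 and 3.49 in the order used above, and Gpr17 read between 4.14 and 5.47. Both stayed below the level minimum on all arrays.

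**Figure D2:**
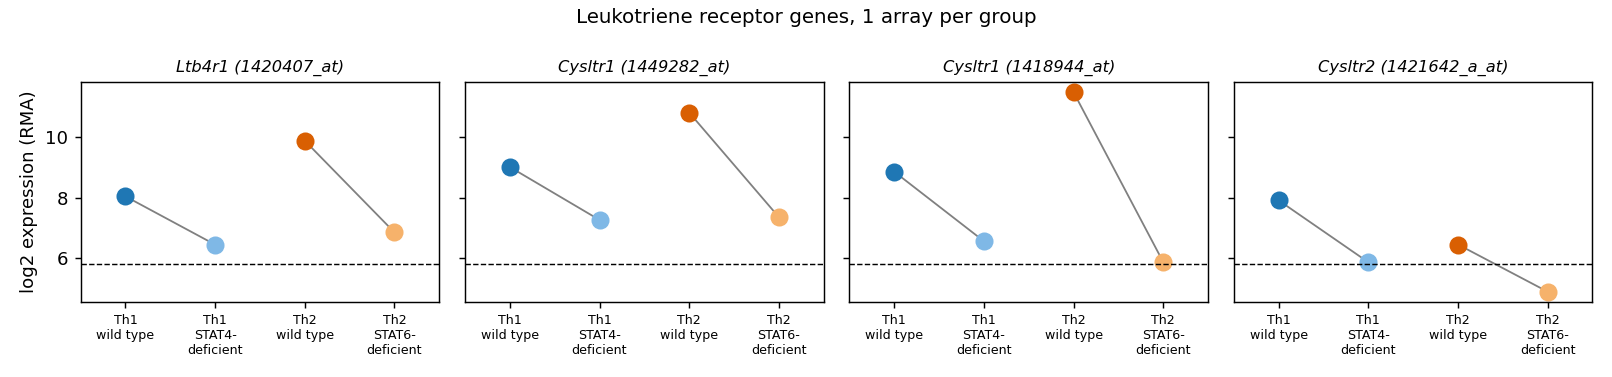
Levels (log2 expression, RMA) of the leukotriene receptor genes Ltb4r1, Cysltr1 (2 probe sets) and Cysltr2 on the 4 arrays, 1 point per array, with grey lines joining deficient and wild type cells of the same culture condition and a dashed line at the level minimum of 5.82. In every panel the deficient array lies below its wild type, and Cysltr2 differs from the others in being highest in Th1 wild type cells, at 7.90.

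The windows before Ltb4r1 (GRCm38.p6, chr14:55765712-55765961, plus strand) and Cysltr2 (chr14:73049115-73049364, minus strand) from the same RefSeq table are shown because both receptors were lower without either STAT. The window of Ltb4r1 held neither motif, and that of Cysltr2 held the longer form once, TTCTGAAGAA, beginning 133 bases before the start and printed in capitals.
Ltb4r1: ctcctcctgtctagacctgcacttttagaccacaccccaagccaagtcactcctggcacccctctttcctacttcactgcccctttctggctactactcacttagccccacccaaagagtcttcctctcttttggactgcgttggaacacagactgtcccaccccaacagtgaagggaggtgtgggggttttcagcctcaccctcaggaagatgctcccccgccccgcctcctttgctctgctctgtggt
Cysltr2: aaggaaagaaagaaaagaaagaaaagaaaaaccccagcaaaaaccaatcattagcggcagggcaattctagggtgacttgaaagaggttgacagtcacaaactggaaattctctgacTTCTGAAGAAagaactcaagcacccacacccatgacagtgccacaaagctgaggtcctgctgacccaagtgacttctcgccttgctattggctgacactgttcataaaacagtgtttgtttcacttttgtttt
The match is a description of the letters, and binding was not measured on these arrays.

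Of the remaining microsomal glutathione transferase family, to which FLAP and leukotriene C4 synthase belong, Mgst2 was called. Its product can also make leukotriene C4, as known from human cells. Mgst2 read 11.11 in wild type and 10.77 in STAT4-deficient Th1 cells, and 8.73 in wild type and 10.31 in STAT6-deficient Th2 cells. Th2 wild type was the low array, so that Mgst2 was higher by 1.58 after STAT6 loss while Ltc4s was lower. Mgst3 was not called in any comparison (7.49, 7.50, 8.25 and 8.40), and Mgst1 was below the level minimum everywhere. Ptges, a prostaglandin E synthase gene, was called between the wild types alone (1.28 higher in Th1), with another of its 3 probe sets at 0.06.

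The list drawn up for release of arachidonic acid and its return to phospholipids included some genes with large differences without STAT6. It holds phospholipases and acyltransferases in general, and which fatty acids each of them handles was not analysed here. Of 22 measured, 13 reached the level minimum in that comparison, 6 were called lower and none higher, where 12.3% of all genes were called lower and 4.43% higher. The median difference of the 22 was −0.28, beside −0.19 over all genes. Pla2g12a, a secreted phospholipase A2 gene, read 9.47, 8.05, 12.09 and 7.71 in the order used above, and differed by −4.37 after STAT6 loss and by −1.42 after STAT4 loss. Mboat1, a lysophospholipid acyltransferase gene, differed by −4.17 after STAT6 loss, at 7.99 against 12.16, and by −2.51 on its other probe set. Lpcat3, the acyltransferase that places arachidonate in phosphatidylcholine, differed by −2.36, at 9.22 against 11.59. Mgll, monoacylglycerol lipase, differed by −2.25, and its 4 probe sets ranged from −2.77 to −0.55. Pla2g15 (−1.31, with its other probe set at −0.27) and Lpcat1 (−1.24, with other probe sets up to 0.30) were the other called genes. In STAT4 loss Lpcat1 was higher (1.54) and Pla2g12a and Acsl4 (−1.12), which activates arachidonic acid, were lower. Pla2g4a, the cytosolic phospholipase A2 that supplies 5-lipoxygenase in myeloid cells, was below the level minimum on all 4 arrays, at 3.30 to 4.00.

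Genes that export, convert or break down leukotrienes had 1 member higher and 1 lower of 13 measured in STAT4 loss, where 4.28% of all genes were called higher and 3.7% lower. In STAT6 loss 2 of the 13 were lower, close to the 12.3% of all genes. Abcc1, the exporter of leukotriene C4, read 10.13 in wild type and 11.38 in STAT4-deficient Th1 cells, 1.25 higher, with its other probe set at 1.07. After STAT6 loss its 2 probe sets read −0.04 and −2.23 as differences, and they do not settle a direction. Ptgr1, which inactivates leukotriene B4, was lower after STAT4 loss (−1.06), and Ggt7 (−2.03) and Cyp4f16 (−1.95) were lower after STAT6 loss. Of 6 other lipoxygenase genes Alox8 was called lower after STAT6 loss, at 3.91 against 5.92. Alox15, which is known to be induced by interleukin-4 in macrophages, stayed below the level minimum on every array (3.99 to 5.47).

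Among 5 measured partners and kinases of 5-lipoxygenase, Prkaca, a catalytic subunit of protein kinase A, was called lower in both losses, as 1.48% of all genes were. Its main probe set, of the kind marked as cross-hybridizing, differed by −2.87 and −2.20 and the other by 0.34 and −1.47, so the direction after STAT4 loss is unsettled. Cotl1, a 5-lipoxygenase binding protein, was not called and read 11.25 to 12.07.

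The prostaglandin branch, which draws on the same arachidonic acid, had 1 of 7 measured synthesis genes called in STAT4 loss and 2 of 7 in STAT6 loss, where 7.98% and 16.7% of all genes were called. Ptgs2, the inducible cyclooxygenase, read 6.14, 3.68, 7.68 and 5.80 in the order used above, with differences of −2.46 after STAT4 loss and −1.88 after STAT6 loss. Its second probe set was also lower after STAT4 loss (−3.15) but stood at 0.99 after STAT6 loss, so the direction in Th2 cells is unsettled. Tbxas1, thromboxane synthase, was at −1.02 after STAT6 loss. Of 9 prostanoid receptors none was called in STAT4 loss, and in STAT6 loss Ptger4 was higher (1.02, with its other probe set at 0.26) and Ptgir lower (−1.38).

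Over the 73 measured genes of these lists, the 4 members apart, 2 (2.74%) were called higher and 8 (11%) lower in STAT4 loss, beside 4.28% and 3.7% of all genes. In STAT6 loss 2 (2.74%) were called higher and 16 (21.9%) lower, beside 4.43% and 12.3%. None was higher in both losses, and 6 (8.22%) were lower in both by their main probe sets, beside 1.48% of all genes. The lists were chosen with earlier results of these data known, so nothing is read from the excess. The 6 were Ltb4r1, Cysltr1, Cysltr2, Pla2g12a, Prkaca and Ptgs2, of which Prkaca and Ptgs2 each had a second probe set that was not lower in one of the losses. The median difference of the 73 genes was 0.08 in STAT4 loss and −0.23 in STAT6 loss, beside 0.17 and −0.19 over all genes. Between the wild types 4 (5.48%) were called higher in Th1 and 17 (23.3%) lower, where 5.42% and 16.9% of all genes were. Among the 17 were Cyp4f13 (−1.12), Ptgr2 (−1.15) and Mapk14 (−1.11, with another of its 6 probe sets at 1.24). Between the deficient cells 6 (8.22%) were called higher in Th1 and 4 (5.48%) lower, near the 8.71% and 7.09% of all genes. Hpgds (1.62), Dpep1 (1.49), Tbxa2r (1.22), Aloxe3 (1.15) and Pla2g10 (1.001) were among the higher genes. Daglb (−2.20), Ptger2 (−1.14) and Pla2g6 (−1.09, with another probe set at 0.77) were among the lower ones.

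**Figure D3:**
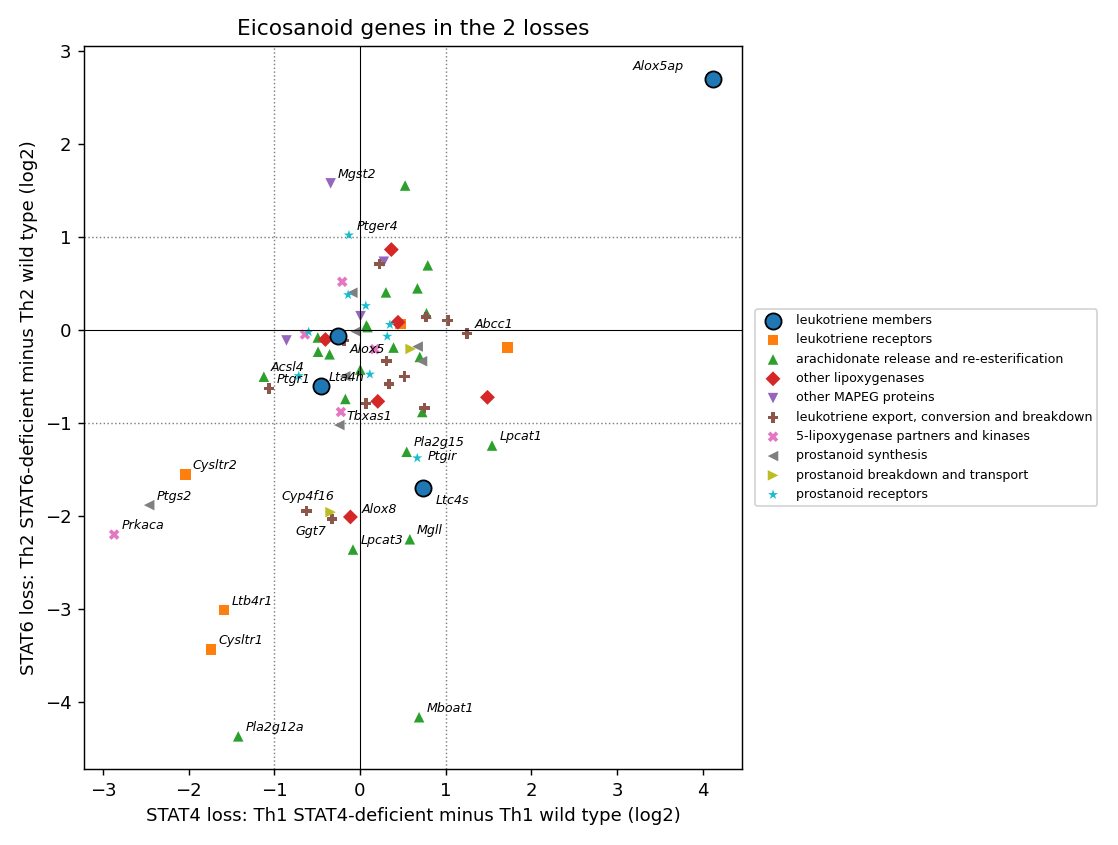
Log2 differences after STAT4 loss (horizontal) and after STAT6 loss (vertical) for the 4 members and the 73 measured genes of the eicosanoid lists, 1 point per gene from its main probe set, with symbols by list, dotted lines at 2-fold and names for the members and for genes called in either loss. Alox5ap lies alone at the upper right (4.11 and 2.70), and 3 leukotriene receptors lie at the lower left together with Pla2g12a, Prkaca and Ptgs2. Points past a dotted line without a name did not reach the level minimum.

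Because myeloid cells and mast cells are the best known makers of leukotrienes, markers of these cells were read on the same arrays. Of 13 measured monocyte, macrophage and dendritic cell markers 5 were below the level minimum on all arrays. None was called higher in STAT4 loss, where 4.28% of all genes were, or in STAT6 loss, where 4.43% were. With shares this small, a count of none in 13 genes carries little information. The summed linear level of this list was 860 in wild type and 779 in STAT4-deficient Th1 cells, and 1057 in wild type and 593 in STAT6-deficient Th2 cells. The sums of the Th1 pair lie close together, and the part of these cells in the Alox5ap levels was not tested. Called lower were Cd68 (−1.50) after STAT4 loss, and Adgre1 (−2.33), Itgax (−1.73) and Fcgr3 (−1.59) after STAT6 loss, beside 3.7% and 12.3% of all genes. Of 12 mast cell and basophil markers 7 were below the level minimum throughout, among them Ms4a2 and Fcer1a, which encode chains of the IgE receptor. Their sum ran from 464 in Th2 STAT6-deficient to 750 in Th2 wild type cells. Cpa3, a mast cell protease gene, read 6.96, 5.63, 8.64 and 4.90 in the order used above, so it was lower in both losses (−1.33 and −3.74), as Ltb4r1 and Cysltr1 were. The list as a whole had a median difference of −0.05 in STAT4 loss and −0.16 in STAT6 loss, and Kit (1.74) and Hdc (0.88) stood above 0 in STAT6 loss. Neither Kit nor Hdc was called there. Both Th2 levels of Kit, 3.95 and 5.69, were below the level minimum, and Hdc was under the 2-fold limit. The part of mast cell markers in the receptor differences was not tested.

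Eosinophil markers were below the level minimum in 5 of 6 genes on all arrays, with sums of 124 to 156. The exception, Ccr3, read 5.97 in wild type and 3.31 in STAT6-deficient Th2 cells. Sums of the 8 measured neutrophil markers ran from 272 to 401, highest in Th1 STAT4-deficient cells. None was called in STAT4 loss, where 7.98% of all genes were, or in STAT6 loss, where 16.7% were. Ngp differed by −1.37 in STAT6 loss and was not called because both of its Th2 levels were below the level minimum. By the mean over the 4 arrays, the most abundant neutrophil marker was Camp (5.82 to 6.14). That of the mast cell list was Hdc (6.45 to 7.42) and that of the monocyte list Csf1r (7.03 to 7.20). Other genes were brighter on single arrays. In Th2 wild type cells Cpa3 read 8.64 and Adgre1 8.26. Ngp read 6.47 in Th1 STAT4-deficient cells and Mpo 6.26 in Th1 wild type cells. For 6 B cell markers the sum was 351 in Th1 STAT4-deficient cells and 242 to 253 on the others, and Cd22 alone was called (1.04 after STAT6 loss, with its other probe set at −0.45). CD8 and NK cell markers summed to 442 to 635 and platelet markers to 325 to 513, with Cd8b1 (−2.07) and Gp9 (−1.08) lower and Eomes (1.09) higher after STAT6 loss. Between the wild types the markers called higher in Th1 were Kit (2.77), Eomes (1.501), Lyz2 (1.39), Cd5 (1.31), Cd3e (1.14), Mpo (1.09), Cd4 (1.05) and Gp1bb (1.02). Those called lower were Adgre1 (−3.26), Cpa3 (−1.68), Ccr3 (−1.62), Itgax (−1.19) and Cd8b1 (−1.13). Between the deficient cells Ngp (2.26), Cd4 (1.97), Gp9 (1.68), Cd247 (1.28), Lyz2 (1.18) and Gp1bb (1.17, with its other probe set at −0.00) were higher in Th1 and Cd3g was lower (−1.12). Cd3d, the most abundant T cell marker, read 13.22 to 13.73, Itga2b of the platelet list 7.35 to 7.85 and Prg3 of the eosinophil list 4.34 to 5.60.

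The values above depend on how the arrays are scaled, since the median difference over all genes ran from −0.07 to 0.55 in STAT4 loss and from −0.30 to −0.02 in STAT6 loss over the 5 scalings used. Relative to that median, Alox5ap was higher by 3.95 to 4.24 in STAT4 loss and by 2.61 to 3.05 in STAT6 loss. Ltc4s stood at 0.48 to 0.67 and −1.55 to −1.45 in the same way. Ltb4r1 differed by −1.95 to −1.71 and −2.83 to −2.63, Cysltr1 by −1.91 to −1.81 and −3.25 to −3.09, and Cysltr2 by −2.58 to −2.20 and −1.36 to −1.23. Median centring and centring on the hybridization controls shift each array by a constant, so these relative values equal the deposited ones under both. Only quantile normalization and cyclic loess could change them, and the narrow ranges are not an agreement of 5 separate scalings.

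**Figure D4:**
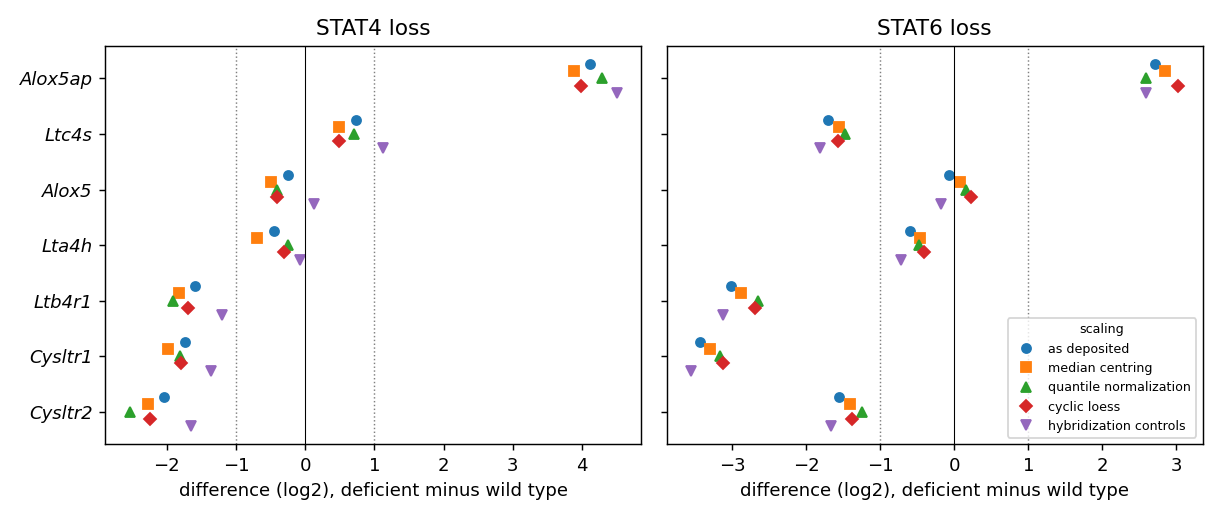
Log2 differences of the 4 members and 3 leukotriene receptors after STAT4 loss (left) and STAT6 loss (right) under 5 scalings of the arrays, 1 symbol per scaling, with dotted lines at 2-fold. Alox5ap stays right of the upper line and the receptors left of the lower one under each scaling, while Alox5 lies on both sides of 0.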

How the data were processed

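Total RNA of 4 cultures was hybridized to 1 array each. The deposited values are log2 expression, 1 per probe set, which the authors computed by RMA, per the submitters' processing notes, which give no version. The 4 arrays do not share 1 distribution, so joint quantile normalization is not visible in them. Of 45101 probe sets 64 are controls and 34945 of the others carry 1 gene in the platform annotation; 932 carry several and were not used. Symbols were updated through a RefSeq table (GRCm38.p6), which matched 34741. A gene is represented by its probe set with the highest mean.

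Differences, calls and list counts were computed with Python 3.11.15 and pandas 2.3.3, and cyclic loess with limma 3.58.1. Simulated arrays with known changes were used to test the code. The rule for names took all members, Stat4 and Stat6, the receptor and related-enzyme lists, pathway and marker genes called in a comparison, the most abundant gene of a marker list, and the 5 nearest genes per member that varied. Pla2g4a, Alox15, Cotl1, Ms4a2, Fcer1a, S100a8, S100a9, Ltf, Lad1 and Ccn3 were named outside it, after their values were seen. Members and lists were chosen with earlier results of these data known.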

Additional observations from a re-analysis of the deposited data

How the results depend on the processing

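Each value was recomputed under 4 other scalings (median centring, quantile normalization, cyclic loess, hybridization controls), with the median over a gene's probe sets, and with the level minimum raised to the 75th percentile or dropped; the receptor values and the single Lta4h probe sets were added after seeing the data. None of the 28 alternatives for Alox5ap moved its difference by as much as the technical guide, and none of the calls of a member or receptor changed sign. For Alox5ap only the 4 other scalings could move the difference. The level-minimum settings change calls alone, and the median over probe sets leaves a gene with 1 probe set as it was. Between the wild types Alox5ap passed the 2-fold limit with cyclic loess (1.17). Of 176 alternatives for the other genes 164 stayed within the guide and 12 moved, 10 of them in Lta4h, where its probe sets disagree. The 164 include the level-minimum settings, so part of that number was fixed in advance. The count of called members became 2 in STAT4 loss and 1 between the wild types (Lta4h, −1.04) with the hybridization controls, 1 between the wild types with cyclic loess, and 1 in STAT6 loss and 1 between the deficient cells with the minimum at the 75th percentile, where the dim Ltc4s is not called. All genes called in STAT4 loss numbered 1452, 2725 with the hybridization controls and 847 at the 75th percentile; between the deficient cells 2875 became 1386 at the 75th percentile. Receptors called lower stayed at 3 in STAT4 loss and went to 2 in STAT6 loss at the 75th percentile. The 75th percentile setting leaves fewer genes eligible; for the other changes the cause was not tested. Dim genes such as Ltc4s, Cysltr2 and Alox8 lie near the level minimum, where signal over background limits the fold. No paired analysis was possible because each group has 1 array.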
